A study of Mus musculus with 4 samples.

Results

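Zp1, Zp2, Zp3, Izumo1r, Cd9 and Astl, the genes of the mouse egg coat and egg surface, were followed from the unfertilized oocyte to the blastocyst in single cells read as full-length cDNA. They were taken by symbol, 6 of the 20171 genes of the gene table, with their 63 of 68012 isoforms and 50 of the 49271 isoforms of a separate set of oocytes. The cells came from 6 to 8 week old C57BL/6J females mated with DBA/2NCrl males, a cross that the sample labels write as DBA/2J x C57BL/6J. Unmated MII oocytes were taken 20 hours after hCG, zygotes at 22 to 24 hours, early 2-cell embryos (E2C) at 30 to 32 hours, late 2-cell embryos (L2C) at 46 to 48 hours and 4-cell embryos at 54 to 56 hours. The 8-cell embryos were taken at 68 to 70 hours, the 16-cell and 32-cell embryos at 78 to 80 hours and early blastocysts at 88 to 90 hours. The gene table held 161 cells, among them 5 cultured mouse embryonic stem cells (mESC). Of these cells 121 carried the name of their oocyte, zygote or embryo and gave 43 replicates, namely 10 oocytes, 9 zygotes and 24 embryos (5 E2C, 6 L2C, 5 of 4 cells, 4 of 8 cells and 4 of 16 cells). The 22 32-cell, 13 blastocyst and 5 mESC cells named no embryo and entered no test. Batch 4 held 4 oocyte columns taken as intact, 6 of 1/2 oocytes and 6 of 1/4 oocytes, and its names did not say which parts came from the same oocyte.

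The zona pellucida is the glycoprotein shell that the growing oocyte builds around itself. In the mouse it is a polymer of ZP1, ZP2 and ZP3, of which ZP2 is the ligand for sperm and ZP3 a partner in the filaments that ZP1 cross-links. IZUMO1R (JUNO) is the folate receptor relative on the egg membrane that binds sperm IZUMO1, and it is held there by a GPI anchor. CD9 is a tetraspanin that the egg membrane needs for fusion, and ASTL (ovastacin) is the cortical granule protease that cleaves ZP2 after fertilization so that further sperm do not bind. All are made as mRNA during oocyte growth, and maternal mRNA is cleared in waves after meiosis resumes and when the embryonic genome becomes active at the 2-cell stage.

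Values are copies per 100,000 UMIs of a cell, averaged over the cells of an embryo, so a value is a share of the captured mRNA and less mRNA per cell cannot be told apart from a larger share. Isoform and last exon copies are scaled to the UMIs assigned to isoforms, which were fewer (1345224 kept in oocytes, against 2027809 assigned to genes). They are therefore not on the scale of gene copies. In oocytes the leading Cd9 isoform had a mean of 4.95 copies where the gene had 4.24. A cell held 166731 to 255836 UMIs in oocytes, 194072 to 389775 in zygotes, 31037 to 105534 in E2C and 4985 to 67963 from L2C to 16-cell. At the median depth 1 UMI was worth 0.511 copies in oocytes and 3.08 copies in 4-cell embryos, so low levels were resolved more finely in the early stages. Summed oocyte markers (10 of 10 detected) ran from 4604 to 5336 in oocytes. Cumulus and granulosa markers (6 of 12 detected) summed to 4.42 to 9.81 in oocytes with Inha and Tnfaip6 at 0, while Amh, Ptx3, Areg and Foxl2 had no entry. In zygotes 8 of the 12 were detected, with sums of 3.97 to 9.31. The sums were 5.56 to 24.9 at L2C, with 2 of the 12 detected, and 10.3 to 42.1 in 4-cell embryos, with 3 of the 12 detected. Sperm markers (2 of 8 detected) summed to at most 2.52 in zygotes with Prm1, Tnp2 and Acrv1 at 0, while Tnp1, Smcp and Akap4 had no entry. Summed late 2-cell markers were 36.1 to 86.0 at E2C and 3.29 to 44.4 at L2C, so they were not higher in the libraries labelled late, and the part of this in the results from E2C to L2C was not tested. No cell barcode was shared between runs. Over the 11676 genes outside the 6, 4 libraries lay nearer the mean of the other label than their own. They were the library labelled oocyte 6, from run 2 (r 0.943 with the oocyte mean and 0.964 with the zygote mean), and the libraries labelled zygote 7, 8 and 9, which were the 3 zygotes of run 3. All 9 libraries of run 1 lay nearer their own label. Some results are given with and without these 4 libraries, and others with all libraries only. The 4 libraries were picked by the expression of the same cells, so the values without them are not separate evidence. L2C 6, 8-cell 1 and 16-cell 2 lay nearest to a neighbouring stage, namely 4-cell, 16-cell and 8-cell.

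The 6 genes followed different courses. By their means, Astl was highest in oocytes and lower at each following stage to 8-cell, and Izumo1r was highest at E2C with no UMI in any L2C cell. Zp3 was highest at L2C after a low at E2C, Zp1 and Zp2 were near 0 by the 8-cell stage, and Cd9 was lowest in oocytes and highest from the 8-cell stage on. With the stages of a gene put in order of their means, the embryos of neighbours in that order overlapped everywhere except for Cd9, between 16-cell and 4-cell and between L2C and E2C. Below, a difference between stages is termed called where limma gave more than 1 on the log2(copies + 1) scale in either direction with an unadjusted p under 0.01. Adjusted p are Benjamini-Hochberg values over all genes, isoforms or last exons tested. Shares were called at an adjusted p under 0.05.

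**Figure D1:**
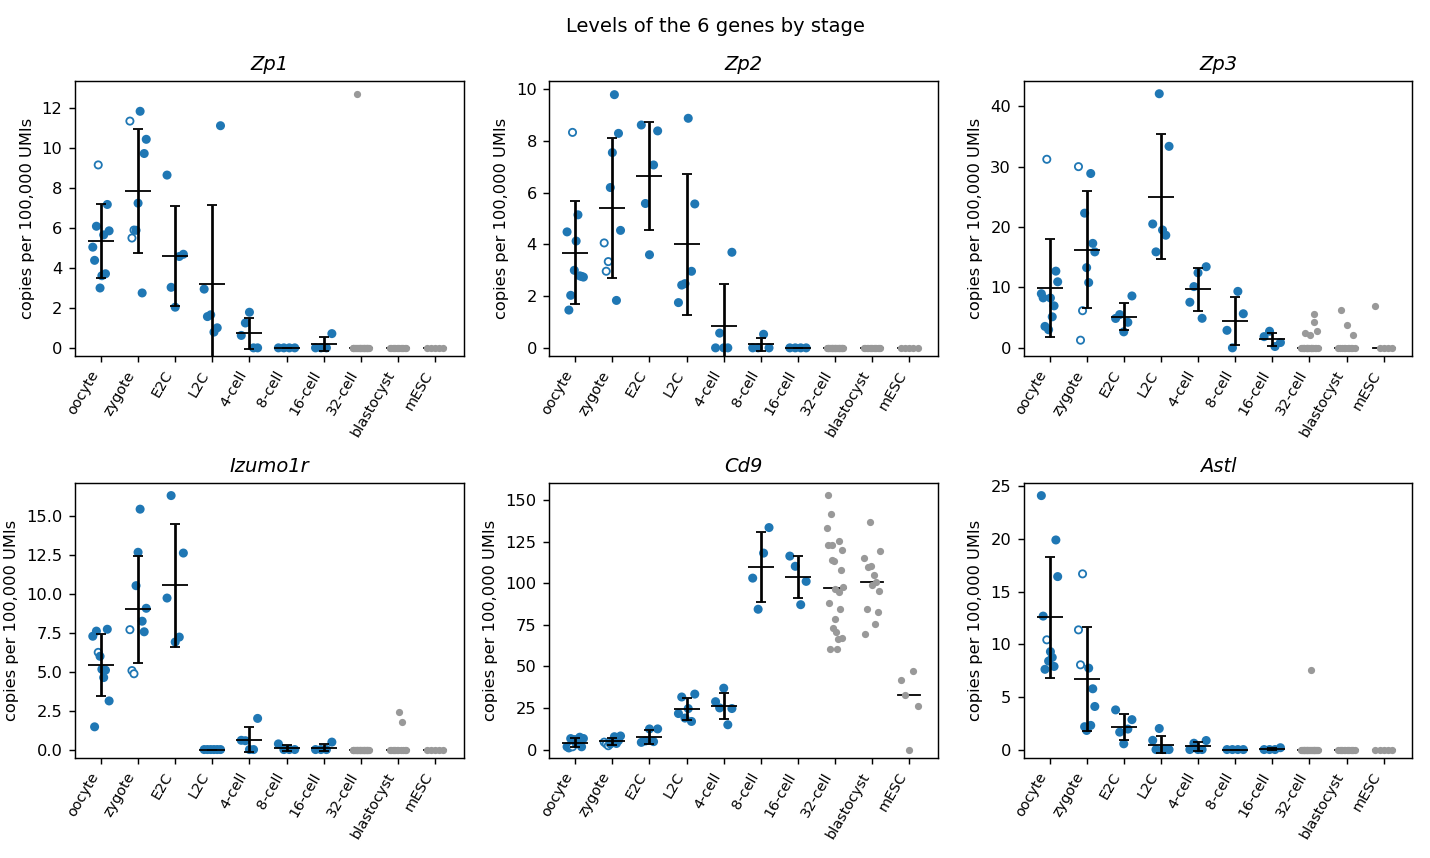
Copies per 100,000 UMIs (vertical axes, each scaled to its gene) of the 6 genes by stage. Blue points are oocytes, zygotes or embryos (open for the 4 libraries nearer the other label) with their mean and SD, and grey points are single cells with no embryo name, with their median. Izumo1r is at 0 in all 6 L2C embryos, Zp3 is at 15.9 to 42.1 there, and Cd9 reaches 84.4 to 134 in 8-cell embryos.

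Zp1 (chr19:10914287-10920632, minus strand, mm10), the cross-linker of the coat, stood at 3.0, 5.35 and 9.16 copies in the lowest, median and highest oocyte and at 2.75, 7.25 and 11.9 in zygotes. The E2C embryos held 4.69, 4.58, 2.04, 3.03 and 8.66 copies. Late 2-cell embryos ran from 0.790 to 11.1 with a median of 1.61, 4-cell embryos from 0 to 1.78, and in 8-cell embryos 0 of 784516 UMIs were Zp1, which allows up to 0.382 copies. The L2C value of 11.1 came from L2C 1, a single cell, and the 11 L2C cells together held 12 Zp1 UMIs. Neighbouring stages overlapped throughout, and no comparison of Zp1 between neighbouring stages was called. The nearest to a call was zygote to E2C, with a log2 difference of −0.80 ± 0.29 (SE) and an adjusted p of 0.0483 in limma.

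Zp2 (chr7:120126772-120145291, minus strand), the sperm ligand, stood at 1.46, 2.89 and 8.33 copies in the lowest, median and highest oocyte and at 1.83, 4.54 and 9.79 in zygotes. The E2C embryos held 8.39, 7.07, 3.60, 5.58 and 8.62 copies and the L2C embryos 1.75 to 8.88 with a median of 2.72. In 4-cell embryos the values were 3.70, 0, 0, 0.570 and 0. Zp2 was thus present in every L2C embryo and missing from 3 of the 5 4-cell embryos, although the ranges overlapped through 4-cell 1. This fall was called, with a log2 difference of −1.53 ± 0.48 and an adjusted p of 0.0576 in limma (0.00364 to 0.246 in 9 other settings). It was not called without L2C 3 (−1.23) or without 4-cell 5 (−1.19). At the 16-cell stage no embryo held a Zp2 UMI.

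Zp3 (chr5:135980099-135988624, plus strand), the filament partner of ZP2, ran from 3.0 to 31.2 copies in oocytes with a median of 8.27. The highest value was that of oocyte 6. Zygotes ran from 1.27, in zygote 8, to 30.0, with a median of 15.9. The E2C embryos held 8.60, 4.23, 2.65, 5.51 and 4.87 copies, a narrow band at the low end of the zygotes. The L2C embryos held 33.4, 18.7, 19.5, 42.1, 15.9 and 20.5 copies, all above every E2C embryo. The 4-cell embryos held 13.4, 4.90, 12.4, 10.2 and 7.56 copies, all below every L2C embryo. By the 16-cell stage the values were 0.885, 0.221, 2.76 and 1.86.

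From zygote to E2C Zp3 fell 3.13-fold (log2 difference −1.34 ± 0.39, adjusted p = 0.0126 in limma, 0.000174 to 0.187 in 10 other settings). It then rose 4.84-fold from E2C to L2C (log2 difference 1.93 ± 0.53, adjusted p = 0.00159 in limma, 0.000243 to 0.0291 in 9 other settings). The rise was called without each library in turn and in 8 of the 9 other settings. Within the 2-cell embryos every one of the 11 L2C cells held Zp3, from 5.16 to 44.5 copies. From L2C to 4-cell the mean went from 25 ± 10.4 to 9.70 ± 3.51 (SD), and this difference was not called (adjusted p = 0.384 in limma). From 8-cell to 16-cell the log2 difference was −1.40 ± 0.54 with an unadjusted p of 0.0113. Without 8-cell 3, 8-cell 4, 16-cell 3 or 16-cell 4 it was −1.70, −1.62, −1.57 and −1.50 in that order and passed the limits for a call, with adjusted p between 0.108 and 0.184 in limma (0.108 to 0.793 over the 8 libraries left out, 0.0869 to 0.738 in the 9 other settings).

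The oocyte to zygote difference of Zp3 depended on the libraries nearer the other label. With all libraries the log2 difference was 0.74 ± 0.28 and not called (adjusted p = 0.0702 in limma, 0.000140 to 0.527 in 12 other settings). Without the 4 libraries it was 1.17 (adjusted p = 0.000140), and in run 1 alone, 5 oocytes against 4 zygotes, it was 1.21 (adjusted p = 0.00131), both called. Later cells without an embryo name held Zp3 in 5 of 22 cells at the 32-cell stage, 3 of 13 in blastocysts and 1 of 5 mESC.

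Izumo1r (chr9:14885814-14903949, minus strand), the egg receptor for sperm IZUMO1, stood at 1.46, 5.58 and 7.74 copies in the lowest, median and highest oocyte and at 4.87, 8.25 and 15.5 in zygotes. The E2C embryos held 12.6, 7.23, 6.92, 16.3 and 9.74 copies. All 6 L2C embryos were at 0. Over their 11 cells 0 of 599502 UMIs were Izumo1r, which allows up to 0.50 copies, so the level was at least 21.1-fold lower than the E2C mean of 10.6 ± 3.96. The fall gave a log2 difference of −3.49 ± 0.38 (adjusted p = 9.54e-12 in limma, 8.41e-14 to 1.73e-08 in 9 other settings). In the 4-cell embryos 3 of 5 were above 0, at 2.00, 0.570 and 0.595 copies, and 2 of 13 blastocyst cells held a UMI. Before the fall the gene went the other way without reaching a call. From oocyte to zygote the log2 difference was 0.70 ± 0.20 (adjusted p = 0.0118 in limma), and from oocyte to E2C it was 0.91 (adjusted p = 0.00687, 0.00114 to 0.236 in 10 other settings). The latter passed the limits without E2C 2 (1.03, adjusted p = 0.00496) or without E2C 3 (1.07, adjusted p = 0.00425). By run, the mean went from 4.80 copies in oocytes to 10.1 in zygotes in run 1, and from 6.02 to 5.89 in run 3. Run 2 had 6.25 copies in its 1 oocyte and a mean of 11.6 in its 2 zygotes. The 3 zygotes of run 3 were among the 4 libraries nearer the other label.

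The Izumo1r mRNA also changed its 3′ end. The annotated transcripts share their first coding exons and differ in the last one. Izumo1r-201 (coding length 732) ends on a proximal last exon, Izumo1r-204 (570) on a shorter form of it, and Izumo1r-202 (516) skips both for a distal last exon downstream. The coding parts of these last exons are printed because they decide how the protein ends. They are GRCm38 minus strand sequence from the GENCODE M21 transcripts, 5′ to 3′, with the stop codon in capitals.

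Izumo1r-201, proximal, chr9:14900356-14900624: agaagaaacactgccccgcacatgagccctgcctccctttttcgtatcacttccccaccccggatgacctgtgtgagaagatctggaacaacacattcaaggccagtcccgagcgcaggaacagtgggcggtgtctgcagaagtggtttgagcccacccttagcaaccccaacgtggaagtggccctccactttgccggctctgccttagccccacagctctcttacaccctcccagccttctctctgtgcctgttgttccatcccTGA

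Izumo1r-204, short proximal, chr9:14900134-14900240: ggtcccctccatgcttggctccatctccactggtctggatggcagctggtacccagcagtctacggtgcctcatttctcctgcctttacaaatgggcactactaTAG

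Izumo1r-202, distal, chr9:14886292-14886344: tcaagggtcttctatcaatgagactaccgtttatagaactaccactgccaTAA

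The proximal form adds 266 bases before its stop codon, the short proximal form 104 and the distal form 50. A GPI anchor is attached at a signal at the carboxyl end of a precursor protein, and which of these ends carries one was not tested. The cleavage ends of the isoforms are shown for the same reason, as the last 30 bases of each with the polyadenylation hexamer in capitals, except that for PB.69032.5, which runs 3 bases past its annotated transcript, they are the last 30 of that transcript, Zp2-205. Isoforms are named by their deposited PB numbers.

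PB.74588.24, proximal, chr9:14900023-14900052: gtaccttcAATAAAaggctaggaaactcta

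PB.74588.54, proximal, chr9:14900138-14900167: tttctcctgcctttacaaatgggcactact

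PB.74588.4, distal, chr9:14885814-14885843: aaatgaAATAAAgtgttattttaaatcttt

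The hexamer AATAAA starts 22 bases before the end of PB.74588.24 and 24 before that of PB.74588.4. PB.74588.4 held 11 UMIs and ends at the annotated end of Izumo1r-202. The more abundant distal isoform PB.74588.2, with 53 UMIs, runs 95 bases past that end, and its own last bases are not shown. No AATAAA or ATTAAA was found in the last 50 bases of PB.74588.54, which ends inside the span of the same last exon. One or the other hexamer stands in the last 50 bases of 50.2% of 58787 annotated protein-coding transcripts (transcript strand only).

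**Figure D2:**
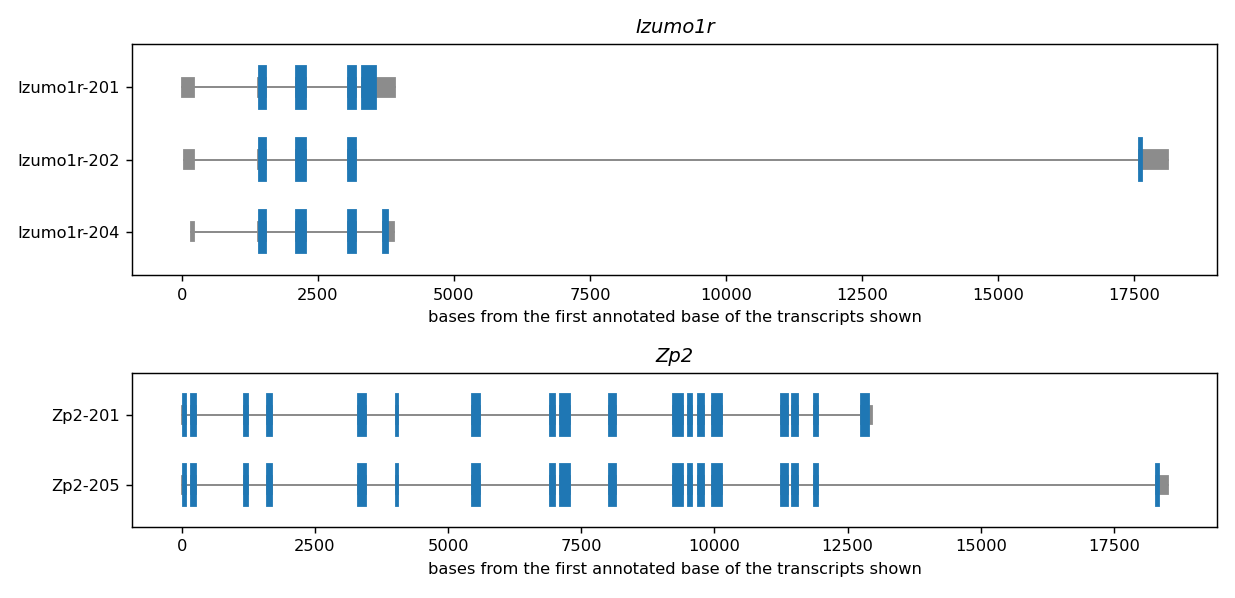
Annotated transcripts of Izumo1r and Zp2 drawn in the direction of transcription, with the distance in bases from the first annotated base on the horizontal axis. Tall blue boxes are coding exons, low grey boxes untranslated exons and lines introns. The distal last exon of Izumo1r-202 and of Zp2-205 lies beyond the end of the other transcripts.

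Oocyte Izumo1r mRNA mostly ended on the distal exon and E2C mRNA on the proximal one. This grouping by last exon was chosen after the isoform values had been seen. Over the 10 oocytes the distal share was 11.1% in the lowest library, 77.8% in the median and 100% in the highest, and over the 9 zygotes 5.88%, 19.2% and 75.0%. The E2C embryos stood at 21.4%, 0%, 0%, 4.08% and 0%. In UMIs this was 54 of 83 in oocytes (65.1%, exact binomial 95% interval 53.8 to 75.2), 42 of 170 in zygotes (24.7%) and 4 of 59 in E2C (6.78%). The mean share of the proximal exon went from 21.8% ± 18.6 to 54.6% ± 15.5 and 92.7% ± 8.76 (SD), and the short proximal form held 6.98%, 13.6% and 0%, the last being 0 of 59 UMIs. Intervals cover counting error only.

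With shares on an arcsine square root scale limma called 2 of the 5 last exons of Izumo1r and Zp2 between oocyte and E2C, against 11.8% of 2235 last exons of all genes. They were the distal exon (adjusted p = 0.00275, 0.000444 to 0.00423 in 3 other settings) and the proximal exon of Izumo1r (adjusted p = 0.000347, 7.99e-05 to 0.000537). From zygote to E2C 1 of 5 was called, the proximal exon (adjusted p = 0.00174, 0.00272 to 0.00419), against 17.9% of 2276. From oocyte to zygote 0 of 5 were called against 0.548% of 2374, and 2 of 5 had an unadjusted p under 0.05, against 12.8%, with adjusted p of 0.113 for the distal and 0.112 for the proximal exon in limma.

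The oocyte to zygote shift went with the 4 libraries nearer the other label. Oocyte 6 had a distal share of 11.1%, the lowest of the oocytes, and zygotes 7, 8 and 9 had 22.2% to 75.0%, the 3 highest of the zygotes. Within run 1 the oocytes stood at 57.1% to 100% (30 of 40 UMIs) and the zygotes at 6.67% to 21.4% (11 of 69 UMIs), with no overlap. Run 2 had 11.1% in its oocyte and 5.88% and 19.2% in its zygotes. In run 3 the oocytes stood at 50% to 100% and the zygotes at 22.2% to 75.0%, which overlap. Without the 4 libraries the distal share was called (adjusted p = 0.00293 in limma), as were the proximal (0.0111) and the short proximal one (0.0219). Without oocyte 6 alone the distal and proximal shares were called (0.0391 and 0.0389). In run 1 alone the adjusted p of the distal share was 0.124, with 0 of 938 last exons called. Over the 5 other settings it ran from 0.00293 to 0.178 and over the 19 libraries left out from 0.0391 to 0.207. The part of library identity in the shift was not tested. Between zygote and E2C the distal share was called without zygote 5 (adjusted p = 0.0466) or E2C 1 (0.0337), and the short proximal share without zygote 7 (0.0311), zygote 8 (0.0352) or zygote 9 (0.0296), where with all libraries limma gave 0.0618 and 0.0675.

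**Figure D3:**
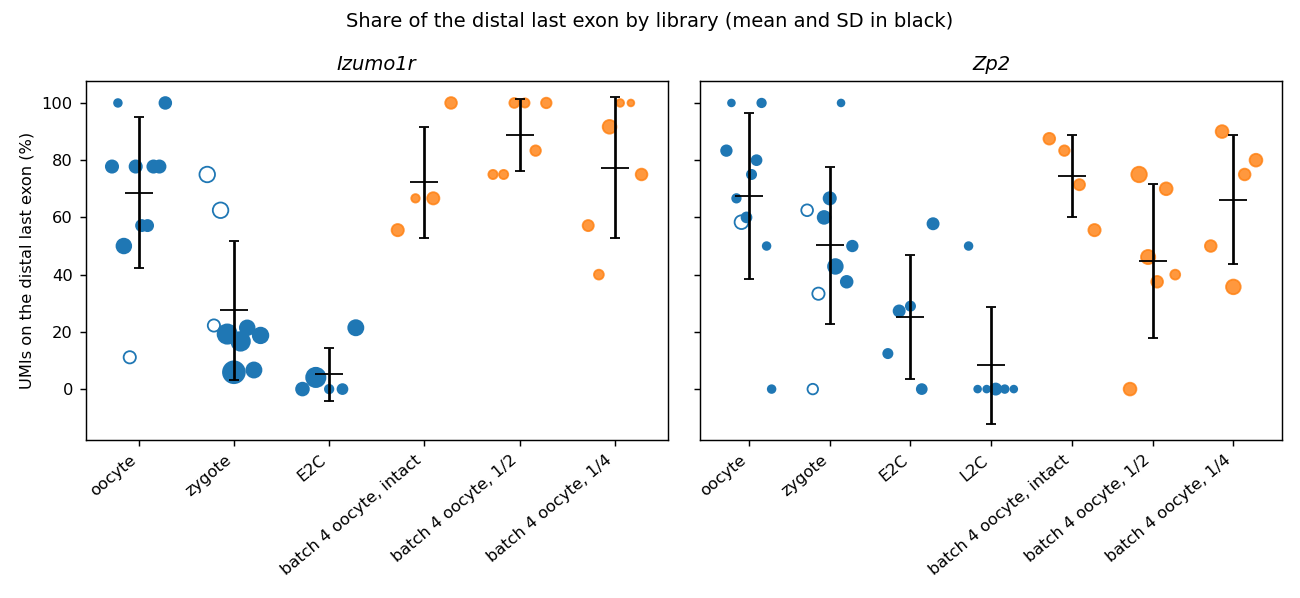
Percent of a gene's UMIs on its distal last exon (vertical axis) for Izumo1r and Zp2 by group, each point 1 library with its area in proportion to the gene's UMIs, and the mean and SD in black. Open points are the 4 libraries nearer the other label and orange points are batch 4. The Izumo1r share goes from a mean of 68.7% in oocytes to 27.6% in zygotes and 5.10% in E2C embryos, and batch 4 oocytes stand at 40% to 100%.

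Copies on each exon, rather than shares, moved in opposite directions. The distal Izumo1r mRNA had a mean of 3.94 copies in oocytes, 2.51 in zygotes and 0.723 in E2C embryos. The proximal mRNA had 1.43, 5.72 and 9.37 copies in the same stages and 0 in L2C. Limma called the rise of the proximal mRNA from oocyte to zygote (log2 difference 1.60 ± 0.26, adjusted p = 2.03e-05, 2.70e-07 to 0.00153 in 2 other settings), 1 of 5 exons against 3.55% of 9625. It also called the fall of the distal mRNA from oocyte to E2C (log2 difference −1.59 ± 0.34, adjusted p = 0.000279). The proximal mRNA of both Izumo1r (2.12 ± 0.35, adjusted p = 3.77e-06) and Zp2 (1.38 ± 0.35, adjusted p = 0.00216) rose over the same interval, so that 3 of 5 exons were called against 15.4%. The short proximal form was called lower from zygote to E2C (−1.27, adjusted p = 0.00111), 1 of 5 against 10.2%. The proximal form was called lower from E2C to L2C (−3.19, adjusted p = 9.16e-08), 1 of 5 against 41.6%. In the later steps limma called 0 of 5, against 5.5% from L2C to 4-cell, where the proximal exon of Zp2 had an unadjusted p of 0.0409, 13.1% from 4-cell to 8-cell and 3.31% from 8-cell to 16-cell, where no exon had one under 0.05.

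**Figure D4:**
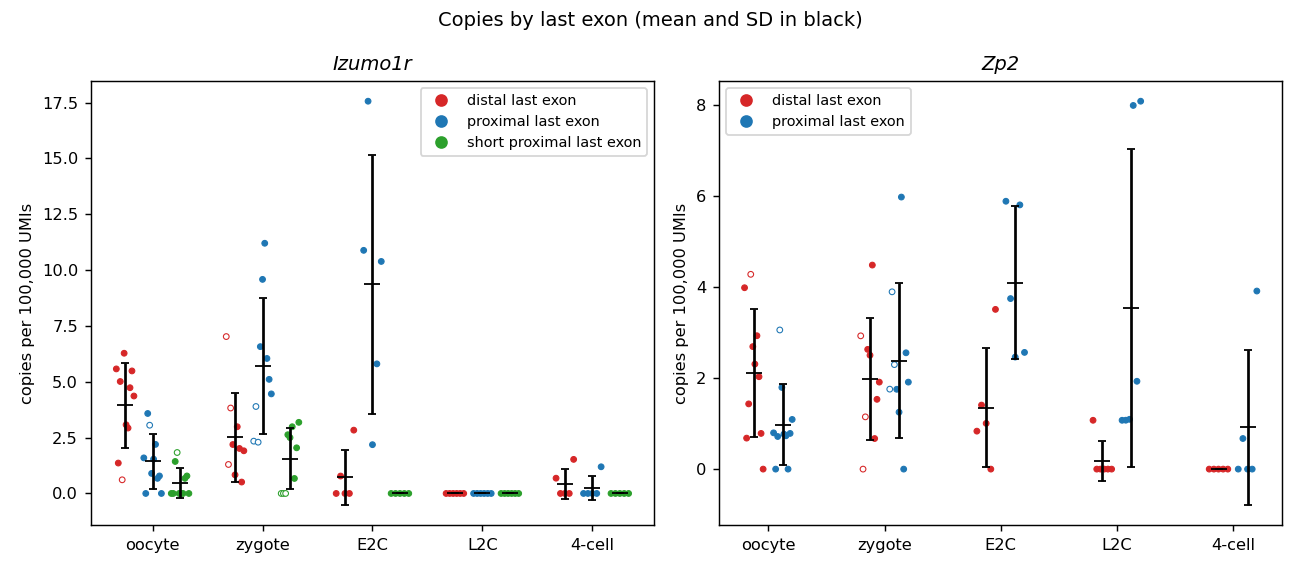
Copies per 100,000 UMIs (vertical axes) of Izumo1r and Zp2 mRNA by last exon and stage, with the mean and SD in black and open points for the 4 libraries nearer the other label. Proximal Izumo1r mRNA goes from a mean of 1.43 in oocytes to 9.37 in E2C embryos while distal mRNA goes from 3.94 to 0.723, and all Izumo1r forms are at 0 in L2C embryos.

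Zp2 has the same layout, with Zp2-201 (coding length 2139) on a proximal and Zp2-205 (2028) on a distal last exon. Their coding ends and cleavage ends are shown so that they can be set beside those of Izumo1r.

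Zp2-201, proximal, chr7:120132389-120132546: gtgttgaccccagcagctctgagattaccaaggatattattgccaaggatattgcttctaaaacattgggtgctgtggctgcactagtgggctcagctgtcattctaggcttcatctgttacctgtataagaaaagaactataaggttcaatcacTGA

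Zp2-205, distal, chr7:120126945-120126991: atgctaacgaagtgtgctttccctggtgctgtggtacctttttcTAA

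PB.69032.32, proximal, chr7:120132359-120132388: ttggacttgcaAATAAAgagactgcagtta

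Zp2-205, distal end, chr7:120126772-120126801: tctttaaactctAATAAAattatcctctgg

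The distal share of Zp2 was 67.3% ± 29 in oocytes, 50.3% ± 27.4 in zygotes, 25.3% ± 21.7 in E2C and 8.33% ± 20.4 in L2C (SD), or 29 of 43, 33 of 71, 8 of 27 and 1 of 14 UMIs. The ranges of neighbouring stages overlapped, and no Zp2 share was called (oocyte to E2C adjusted p = 0.140 in limma, 0.0912 to 0.204 in 3 other settings). Without oocyte 1, which had 0% on 2 UMIs, the adjusted p was 0.0205 and the share was called.

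The separate oocytes of batch 4 gave a second look at both ends. In UMI counts 73 of 93 Izumo1r UMIs were distal (78.5%, interval 68.8 to 86.3), 21 of 29 in intact oocytes, 26 of 29 in 1/2 oocytes and 26 of 35 in 1/4 oocytes. The proximal exon held 14 of 93. For Zp2 84 of 142 were distal (59.2%, interval 50.6 to 67.3), but the parts differed. They held 22 of 30 in intact oocytes, 30 of 62 in 1/2 oocytes and 32 of 50 in 1/4 oocytes. Over the 15 columns with Zp2 the distal share ran from 0% to 90%. All 16 columns held distal Izumo1r mRNA, with shares of 40% to 100%.

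Cd9 (chr6:125460266-125494791, minus strand), the tetraspanin, stood at 0.974, 4.81 and 7.42 copies in the lowest, median and highest oocyte and at 2.31, 4.46 and 8.18 in zygotes. The E2C embryos held 12.4, 4.76, 12.4, 5.17 and 4.33 copies. The L2C embryos held 33.4, 16.9, 24.7, 19.0, 31.6 and 21.7, all above every E2C embryo. The 4-cell embryos, at 24.7, 14.9, 36.9, 25.1 and 28.8, overlapped them. The 8-cell embryos held 134, 118, 84.4 and 103 copies, again above all the earlier ones, and the 16-cell embryos 101, 87.2, 110 and 116.

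Cd9 rose 3.14-fold from E2C to L2C (log2 difference 1.52 ± 0.41, adjusted p = 0.00125 in limma, 5.58e-05 to 0.0141 in 9 other settings). It rose 4.21-fold from 4-cell to 8-cell (2.06 ± 0.44, adjusted p = 0.000526 in limma, 6.25e-12 to 0.00895). Both rises were called in every setting run and without each library in turn. Sequencing run was assigned only to oocytes and zygotes, so no setting for these later steps took it into account. From 8-cell to 16-cell the log2 difference was −0.17 with a 95% interval of −0.99 to 0.64. Single 8-cell cells ran from 59.1 to 179 copies and 16-cell cells from 48.2 to 173, so every cell of these embryos held Cd9. The median was 97.1 copies in 32-cell cells (60.3 to 153), 101 in blastocyst cells (69.8 to 137) and 32.8 in mESC (0 to 47.3).

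Astl (chr2:127338639-127357651, plus strand), the protease that hardens the coat against sperm, stood at 7.62, 9.85 and 24.1 copies in the lowest, median and highest oocyte and at 1.81, 5.77 and 16.7 in zygotes. The E2C embryos held 2.84, 1.95, 0.545, 1.65 and 3.77 copies, all below every oocyte. In L2C 4 of 6 embryos were at 0, and all 8-cell embryos were. The log2 difference of −1.10 from E2C to L2C was not called (adjusted p = 0.0332 in limma, 0.00160 to 1 in 9 other settings), but it was without E2C 3 (−1.35) or L2C 4 (−1.28). Astl fell at each of the first steps, by 1.05 ± 0.24 on the log2 scale from oocyte to zygote (adjusted p = 0.00144 in limma) and by 1.11 ± 0.33 from zygote to E2C (adjusted p = 0.0156 in limma). Over both steps it fell 5.84-fold (log2 difference −2.16 ± 0.32, adjusted p = 2.33e-07 in limma, 2.72e-08 to 0.000319 in 10 other settings).

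The first step lay close to the limit of 1 on the log2 scale. Without oocyte 1, 9 or 10 the log2 difference was −0.99, −0.94 and −0.97, and without zygote 1, 3, 5 or 6 it was −0.99, −0.91, −0.85 and −0.87. None of these was called, with adjusted p of 0.00427 to 0.0162 in limma. Over 12 other settings the adjusted p ran from 2.28e-06 to 0.0653 and 6 were called. Without the 4 libraries nearer the other label the difference was −1.49 (adjusted p = 2.28e-06, called), and in run 1 alone −0.92 (adjusted p = 0.0168, not called). The second step was not called without zygote 7 (−0.92), zygote 9 (−0.96) or E2C 3 (−0.87), nor without the 4 libraries (−0.68, adjusted p = 0.157, over a range of 0.00195 to 0.157 in 10 other settings).

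**Figure D5:**
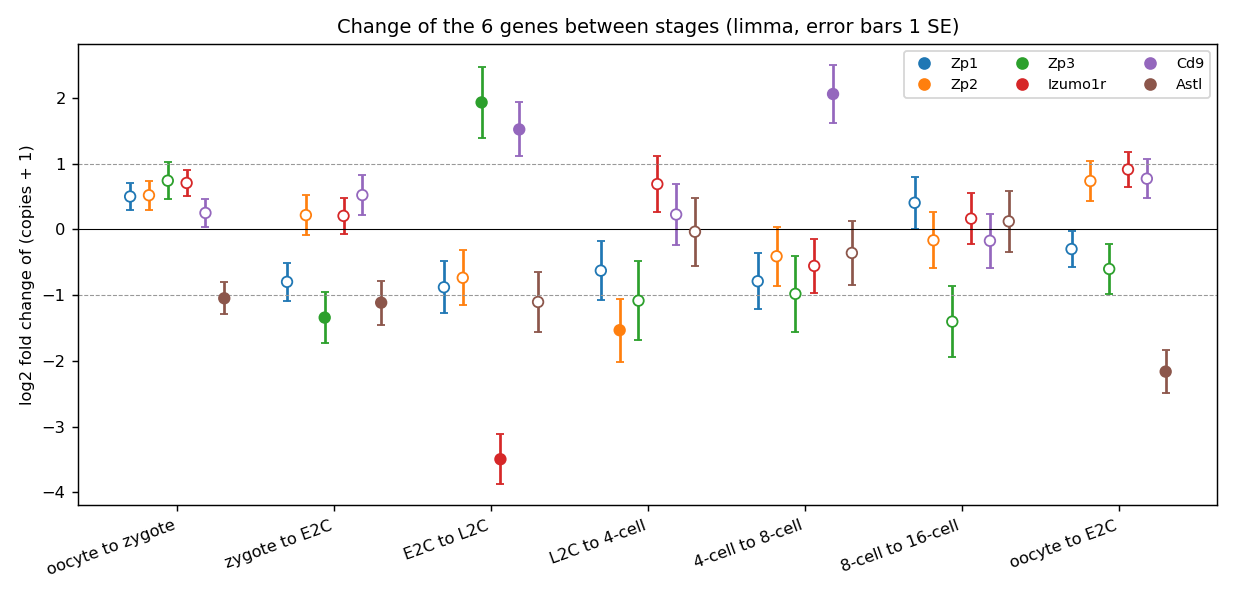
Log2 difference of copies plus 1 (vertical axis, limma, error bars 1 SE) of the 6 genes in each comparison, with dashed lines at the limit of 1. Filled points passed the limits and open points did not. Izumo1r at E2C to L2C (−3.49) and Cd9 at 4-cell to 8-cell (2.06) stand farthest from 0 among the steps between neighbouring stages.

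Counted together, the 6 genes gave 1 call from oocyte to zygote (lower), against 3.24% of 11682 genes tested, and 2 from zygote to E2C (both lower), against 7.27%. From E2C to L2C there were 3 calls, 2 higher and 1 lower, against 48.4% of all genes called. The embryos of these stages did not overlap for the same 3 genes, against 27.6% of all genes. Ranges also did not overlap for Zp3 from L2C to 4-cell, against 1.21%, and for Cd9 from 4-cell to 8-cell, against 10.2%. From oocyte to E2C this held for Astl, against 9.44%, and in the remaining comparisons for 0 of the 6, against 0.0342% to 4.42%. From L2C to 4-cell there was 1 call (lower) against 6.69%, from 4-cell to 8-cell 1 (higher) against 15%, and from oocyte to E2C 1 (lower) against 16.8%. From 8-cell to 16-cell there was 0 against 3.36%, with 1 of 6 at an unadjusted p under 0.05 (11.1% of all genes) and 1 of 6 called by edgeR (4.19% of 6234 genes) and by DESeq2 (1.84% of 15266). Lower calls alone made up 0.325% of all genes from oocyte to zygote, 2.75% from zygote to E2C, 22.8% from E2C to L2C, 4.28% from L2C to 4-cell, 10.5% from 4-cell to 8-cell, 1.46% from 8-cell to 16-cell and 4.11% from oocyte to E2C. Higher calls alone made up 2.92%, 4.52%, 25.6%, 2.41%, 4.47% and 1.9% in the steps in order of stage and 12.7% from oocyte to E2C. The E2C to L2C count of 3 of 6 is near the share of all genes called there. Under median of ratios scaling all 6 were called in that step, against 48.7% of 11538 genes, the median of all genes moved from 0.03 to −0.21, and the share of called genes that were higher went from 52.9% to 41.6%. The median log2 difference of the 6 was 0.51 from oocyte to zygote, where that of all genes was 0.07, and −0.81 from E2C to L2C, where that of all genes was 0.03. In the other steps it was −0.30 (all genes 0.11), −0.33 (−0.06), −0.48 (−0.16) and −0.02 (0.03) in order of stage, and 0.22 (0.18) from oocyte to E2C.

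The 63 isoforms comprised 14 that match every splice junction of an annotated transcript, 41 that match part of one, and 8 with splice combinations or sites that no annotated transcript has. The ends of the 14 can differ from the annotated ones. PB.74588.54, for example, starts 136 bases and ends 115 bases inside Izumo1r-201. Of the 63 isoforms 23 hold an annotated start and stop codon, and 31 passed the filter on low values. The leading isoform of Zp1 in oocytes was PB.38215.1 (62.2% ± 21.9 of the gene's isoform copies), of Zp2 PB.69032.5 (36.8% ± 32.2), of Zp3 PB.59875.5 (82.8% ± 8.08), of Izumo1r the distal PB.74588.2 (35.5% ± 14.4), of Cd9 PB.64234.1 (93.1% ± 6.88) and of Astl PB.43778.2 (71.2% ± 25.1). PB.64234.1 also led Cd9 in 16-cell embryos, at 87.9% ± 11.

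From oocyte to zygote 1 of 31 member isoforms was called, against 1.48% of 29409. It was the proximal Izumo1r isoform PB.74588.24, with a mean of 0.937 copies in oocytes and 4.33 in zygotes (log2 difference 1.49, adjusted p = 5.77e-06 in limma). From zygote to E2C 4 were called (5.18% of all). PB.59875.5 of Zp3 and PB.43778.2 of Astl were lower there, and of the proximal Izumo1r isoforms PB.74588.54 was higher and the short PB.74588.27 lower. From E2C to L2C 5 were called (26% of all). Besides PB.64234.1 of Cd9 and PB.59875.65 of Zp3, both higher, they were PB.74588.24, PB.74588.54 and the Cd9 isoform PB.64234.58, all lower. From L2C to 4-cell 1 was called, PB.69032.32 of Zp2 (4.29% of all), from 4-cell to 8-cell 4, all of Cd9 and higher (7.93%), from 8-cell to 16-cell 1, PB.59875.5 (1.97%), and from oocyte to E2C 5 (8.3%). Isoforms other than the leading ones are named here after their values were seen.

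Several of these isoform calls rested on single libraries, as the log2 differences given here in parentheses show. From zygote to E2C PB.74588.54 was not called without E2C 1 (0.80), E2C 4 (0.58), zygote 7 (0.99) or zygote 8 (1.0). PB.43778.2 was not called there without any 1 of the 5 E2C embryos or without zygote 7, 8 or 9 (−1.23 to −0.98), and PB.59875.5 not without E2C 2, 3, 4 or 5 or without zygote 2, 3, 6 or 9 (−1.47 to −1.27). With 1 library left out at a time, PB.43778.2 was called from oocyte to zygote only without oocyte 2, 3, 4, 5, 6 or 7 or without zygote 1, 7, 8 or 9 (−1.22 to −1.02). Of the other isoforms named here, none of them called in these steps with all libraries, PB.38215.1 of Zp1 was called from zygote to E2C only without zygote 3 (−1.11) and PB.74588.2 only without E2C 1 (−1.01), PB.69032.32 from E2C to L2C only without E2C 4 (1.19), and PB.59875.65 from 4-cell to 8-cell only without 4-cell 1, 2 or 3 or 8-cell 1 (−1.17 to −1.09). PB.64234.1 was not called from E2C to L2C without E2C 4 (1.40), E2C 5 (1.26) or L2C 5 (1.49). From L2C to 4-cell PB.69032.32 was not called without 4-cell 4 (−1.19), 4-cell 5 (−1.19) or L2C 3 (−0.95). From 4-cell to 8-cell the Cd9 isoform PB.64234.5 was not called without 4-cell 4 (1.08), 4-cell 5 (1.07), 8-cell 1 (0.93) or 8-cell 2 (0.94). From 8-cell to 16-cell PB.59875.5 was not called without 8-cell 1 (−1.44), 8-cell 2 (−1.12), 16-cell 1 (−1.45) or 16-cell 2 (−1.36). From oocyte to E2C PB.64234.58 was not called without E2C 5 (0.87). PB.43778.2 was at 0 in all E2C embryos, where the gene table, on its own scale, held a mean of 2.15 copies of Astl. The isoform table leaves out isoforms seen in fewer than 5 cells, and the part of this in the gap was not tested.

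Some of these isoforms were confined to a few stages at this depth. PB.74588.54, which ends inside the proximal exon, had 0 UMIs in oocytes, 9 in zygotes and 17 in E2C embryos, and none in later embryos or in batch 4. The Zp3 isoform PB.59875.65 begins on an exon at chr5:135983163-135983320, downstream of the annotated start codon, and lacks that codon. It had 0 UMIs from oocyte to E2C, 10 in L2C, 7 in 4-cell and 1 in 8-cell embryos, but 9 UMIs in 8 of the batch 4 oocyte columns. Its log2 difference from E2C to L2C was 1.34 (adjusted p = 0.000273 in limma). PB.64234.58, a Cd9 isoform with its end at chr6:125460380, had means of 0.195, 0.833 and 1.61 copies in oocytes, zygotes and E2C embryos and 0 UMIs from L2C on.

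For shares of single isoforms within a gene, limma called 0 of 16 member isoforms from oocyte to zygote against 0% of 14883, with 4 of 16 at an unadjusted p under 0.05 against 5.93%. It called 0 of 6 from zygote to E2C against 0.465% of 9892, with 3 of 6 under that limit against 12.8%. From oocyte to E2C it called 0 of 4 against 1.79% of 9106, with 4 of 4 under it against 14.3%. These 4 were isoforms of Cd9 and Zp3. An isoform entered only if present in at least 3 units of both stages, beside another such isoform of its gene. Isoforms missing from 1 of the 2 stages thus dropped out. Single isoform shares of Zp1, Zp2, Izumo1r and Astl were not tested from oocyte to E2C. In the later steps, where only isoforms of Zp3 or Cd9 were tested, 0 of 2 to 4 were called. This stood against 4.83% from E2C to L2C and 0% in the others, with 0 at an unadjusted p under 0.05 against 2.46% to 15.6%. Without E2C 1 the share of PB.64234.58 was called from oocyte to E2C (adjusted p = 0.0342).

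Between intact, 1/2 and 1/4 oocytes of batch 4 (129744 to 289774 UMIs a column) the ranges of each of the 6 genes overlapped. With so few columns this does not show that the levels were equal, and 1 of the 1/4 columns held no Zp2 UMI. Astl had 19.6 ± 4.45, 23.0 ± 6.25 and 20.0 ± 9.08 copies per 100,000 in intact, 1/2 and 1/4 oocytes, Zp3 8.01 ± 4.71, 8.38 ± 2.79 and 5.29 ± 2.35, and Zp1 5.58 ± 0.786, 7.47 ± 2.25 and 5.51 ± 1.05 (SD). Zp2 had means of 3.40, 5.49 and 4.06, Izumo1r 3.16, 2.81 and 3.18, and Cd9 1.21, 0.824 and 1.13. EdgeR tested 4 of the 6, since Izumo1r and Cd9 did not pass its filter, and called 0 in either comparison, as it did for 0% of the 2767 genes tested. None of the 4 had an unadjusted p under 0.05, while 185 and 255 of the 2767 genes did. DESeq2 called 0 of the 6 between intact and 1/2 oocytes, beside 0 of 8903 genes. Between intact and 1/4 oocytes it called 7 of 8903 genes and 0 of the 6, but adjusted p were missing among the 6. A gene without an adjusted p could not be called, so that 0 does not bear on such genes.

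The genes that work beside the egg surface proteins were counted over lists. Of 30 tetraspanins and integrin partners of CD9, 21 were tested. From E2C to L2C 5 rose and 6 fell, with a median log2 difference of −0.49. Cd63, a tetraspanin of endosomes, went from 5.58 to 155 copies (log2 difference 4.72 ± 0.33, adjusted p = 3.24e-18 in limma), in the same step as Cd9. Itga9, an integrin subunit, fell from 50.1 to 1.49 copies (−4.34 ± 0.32, adjusted p = 1.22e-17 in limma). Itga6, the laminin receptor subunit, had means of 23.4, 15.5, 10.3 and 4.02 copies from oocyte to L2C. In the other steps at most 2 of the 21 moved in each direction between neighbouring stages. Of all genes 1.9% to 4.52% were called higher and 0.325% to 10.5% lower in those steps.

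Of 10 folate receptor and GPI anchor genes 8 were tested. None was called before E2C between neighbouring stages, and from E2C to L2C 3 rose (Folr1, Pigs, Pigm) and 2 fell (Pigu, Piga). Folr1, the folate receptor paralogue of Izumo1r, rose from 1.96 to 37.0 copies (log2 difference 3.86, adjusted p = 1.05e-12 in limma) at the step where Izumo1r fell to 0. Of 11 protease and inhibitor genes 7 were tested. Furin, the convertase that cuts secreted precursors, fell from 12.5 in oocytes to 7.58 in zygotes (−1.17, adjusted p = 0.00139 in limma) and 1.32 in E2C (−1.33, adjusted p = 0.00874 in limma), and it was the only one of the 7 called in either step. From E2C to L2C Mep1b rose and Tll1 and Fetub fell.

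Of 9 transcription regulators of the growing oocyte 7 were tested. Lhx8, an oocyte homeobox factor, had means of 2.60, 5.11, 12.6 and 0.765 copies from oocyte to L2C, rising from zygote to E2C (1.15, adjusted p = 0.00631 in limma) and falling from E2C to L2C (−3.01). In the latter step Nobox and Tbpl2 fell too and Taf4b rose (2.25). Of 10 egg coat relatives 1 was tested, Tgfbr3, which fell from E2C to L2C (−2.08), and of 19 sperm-side genes 2 were, of which Spam1 fell in that step (−1.77). All these list counts stand against the 48.4% of all genes called from E2C to L2C. In the other steps in order of stage that share was 3.24%, 7.27%, 6.69%, 15% and 3.36%.

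The genes most alike in course over the 43 oocytes, zygotes and embryos, by Pearson r on log2(copies + 1) among 11682 genes, differed between the 6. They were Bscl2 (0.90), Hmgcll1 and Nlrp2 for Zp1, Dcp2 (0.90), Mllt11 and Cdr2 for Zp2, and Polr2j (0.67), Sh2d3c and Ddx46 for Zp3. For Izumo1r they were Oas1h (0.95), Ifitm6 and Oog4, with means of 0.592, 0.376 and 1.09 copies in L2C, for Cd9 the ribosomal protein genes Rpl7a (0.96), Rpl4 and Rpl6, and for Astl Ttc39c (0.93), Tpra1 and Lamb1. Among the 6 themselves r ran from −0.84 (Cd9 with Astl) to 0.78 (Zp1 with Zp2). The points share stage and depth, and these values are descriptions.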

How the data were processed

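Single cells and oocytes were read as full-length cDNA with HIT-scISOseq on a PacBio instrument. Reads were processed by the authors with SMRT-Link and scISA-Tools, aligned to mm10 with minimap2 against the 10x mm10 reference, collapsed with cDNA_Cupcake and classed with SQANTI3 and gffcompare. For batches 1 to 3 the authors deposited normalized values, copies per 100,000 UMIs, a CPM-type unit at another scale, and isoforms seen in fewer than 5 cells had been removed after the total was taken. For batch 4 they deposited UMI counts per isoform, summed here per gene. The other deposited values used are the exon coordinates of the isoforms.

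Whole UMIs were recovered from 100% of the values within 0.1. Copies were averaged over the cells of an oocyte, zygote or embryo, and the 43 such units were the replicates. Genes and isoforms with at least 1 copy in at least 4 units were tested on log2(copies + 1), with a pseudocount of 1, in limma 3.58.1 with a mean trend and array weights. A call needed more than 1 on the log2 scale and p under 0.01, and fold changes on this scale understate the change of low genes. Shares of isoforms and of last exons were tested in limma on the arcsine square root, at an adjusted p under 0.05. Isoforms had to be present in at least 3 units of each stage. For last exons this was asked of the gene and not of the exon. Batch 4 was tested with edgeR 4.0.16 (quasi-likelihood, adjusted p under 0.05), and edgeR and DESeq2 1.42.0 on recovered UMIs were alternatives. R 4.3.3, Python 3.11.15, pandas 2.3.3, SciPy 1.17.1 and matplotlib 3.10.9 were used, and the fits were tested on simulated data. UMI totals ran from 4985 to 389775 a cell in batches 1 to 3 and from 129744 to 289774 a column in batch 4, and floors are 3 UMIs over a group. Sequences and transcripts came from GENCODE M21 on GRCm38, the build of mm10.

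The named isoform of each gene was the one with the largest mean share in oocytes (for Cd9 also in 16-cell embryos). The 6 genes and the gene lists were chosen with earlier results of these data known. Other settings were the pseudocount, the filter, array weights, scaling, UMIs summed per embryo, the sum over the isoform table and each library left out. From oocyte to zygote run as a block was 1 more. Run was assigned only to oocytes and zygotes, so its part in the comparisons with later stages was not tested. Leaving out each oocyte, zygote or L2C embryo, leaving out the 4 libraries nearer the other label, run 1 alone and all results by last exon were chosen after seeing the data. Where cells of a stage name no embryo, only ranges and medians are given. Nothing says that the units came from separate females, so p-values measure the spread between these units only.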

Additional observations from a re-analysis of the deposited data

Results flagged for a closer look

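In 13 of 73 groups of 4 to 10 libraries the highest or lowest library stood far from the others by Dixon's test. Chance flags about 1 in 20 groups of normally distributed values. A group with a single library above 0 is flagged whatever its value, so that rate cannot be set against the count here. In copies per 100,000 UMIs, Zp1 stood at 11.1 in L2C 1, where the next embryo had 2.94, and Zp3 at 31.2 in oocyte 6, where the next oocyte had 12.7. L2C 1 was a single cell with the lowest depth of its stage, 17971 UMIs. Zp2 stood at 3.70 in 4-cell 1, where the next embryo had 0.570. In late stages a single embryo above 0 was enough, with Zp1 at 0.714, Izumo1r at 0.480 and Astl at 0.175 in 16-cell 1, Zp2 at 0.526 in 8-cell 2 and Izumo1r at 0.365 in 8-cell 4. Zp3 stood at 7.01 in mESC cell 5, with the other cells at 0, and at 13.7 in part 5 of the 1/2 oocytes of batch 4, where the next had 8.97.

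Of the shares on the distal last exon, that of Izumo1r was 21.4% in E2C 1, where the next embryo had 4.08%. That of Zp2 was 0% in oocyte 1, on 2 UMIs, where the next oocyte had 50%, and 50% in L2C 6, on 2 UMIs, where the other embryos had 0%.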

How the results depend on the processing

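No called value changed sign under any setting run. Of 145 values of counts of calls under settings other than leaving out 1 library, 98 were within 1.5 times the reported count and 47 were not. Of 615 values for single genes and isoforms, 521 kept their side of the limits and 94 did not. The cause of these changes was not tested.

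Of the 6 genes, 1 was called from oocyte to zygote, and 0 were with a pseudocount of 5, without the filter, without array weights, with edgeR or with run as a block, and 2 without the 4 libraries nearer the other label. From zygote to E2C 2 were called, 0 with a pseudocount of 5, and 1 with a pseudocount of 0.1, without the filter, from the isoform table or without the 4 libraries. From E2C to L2C 3 were called and 6 under median of ratios scaling. From L2C to 4-cell 1 was called, 2 with a pseudocount of 0.1 or without array weights, and 0 with a pseudocount of 5, edgeR, DESeq2 or the isoform table. From 4-cell to 8-cell 1 was called and 2 with a pseudocount of 0.1. From 8-cell to 16-cell 0 were called, and 1 with a pseudocount of 0.1, UMIs summed per embryo, edgeR, DESeq2, the isoform table or median of ratios.

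Of the isoforms, with a pseudocount of 5 there were 0, 0, 1, 0, 1 and 0 called in the steps in order of stage and 0 from oocyte to E2C, and with edgeR 0, 1, 0, 0 and 1 to 8-cell and 0 from oocyte to E2C, against 1, 4, 5, 1, 4, 1 and 5 reported. From oocyte to zygote there were 5 with a pseudocount of 0.1, 4 without the 4 libraries and 2 in run 1 alone. From zygote to E2C there were 2 without the 4 libraries, and from 8-cell to 16-cell 0 without the filter. Without the 4 libraries 2 isoform shares and 3 last exon shares were called from oocyte to zygote, 2 last exon shares from zygote to E2C, and 3 last exons by copies from oocyte to zygote.

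With each library left out in turn the genes called ranged from 0 to 1, 1 to 2, 3 to 4, 0 to 1, 1 to 1 and 0 to 1 in order of stage and from 1 to 2 from oocyte to E2C. Isoforms ranged from 1 to 2, 1 to 4, 5 to 6, 0 to 2, 3 to 6 and 0 to 1, and from 4 to 6 from oocyte to E2C. Isoform shares ranged from 0 to 1 from oocyte to E2C and stayed at 0 elsewhere. Last exon shares ranged from 0 to 2, 1 to 2 and, from oocyte to E2C, 2 to 4. Batch 4 stayed at 0. Copies by last exon were not refitted without single libraries.

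With edgeR the share of called genes that were higher was 40.8% from zygote to E2C (reported fit 62.2%), 50.9% from 4-cell to 8-cell (29.8%), 74.7% from 8-cell to 16-cell (56.5%) and 59.5% from oocyte to E2C (75.6%). No paired analysis was possible because the numbers of oocytes, zygotes and embryos name separate units and no label ties them across stages. At 4-cell and later depths 1 UMI is worth about 3 copies in a cell, so low levels there were not detectable in single cells.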
